A study of Sus scrofa with 4 samples.

Results

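The cell division cycle was followed through 50 named genes in sorted pig lung cells, chosen by symbol as regulators of entry into the cycle, of DNA replication, of mitosis and of arrest. The count tables held 45 of them among 29263 genes, 42 under their symbol and 3 (CCNE1, CDK2 and NUSAP1) under an Ensembl identifier that the gene name table pairs with it. MKI67, CCNA2, AURKA, RRM2 and MCM5 had no matching row and are not analysed here. All 45 passed the filter on low counts and were tested.

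A cell enters the cycle when D cyclins with CDK4 or CDK6, and then E cyclins with CDK2, phosphorylate the retinoblastoma (pocket) proteins and free the E2F transcription factors. E2F factors switch on the genes of DNA replication, and a later programme, driven by CDK1 with the B cyclins, carries the cell through mitosis. CDK inhibitors hold these kinases back, and most cells of an adult lung are outside the cycle. The transcripts of replication and mitosis genes are therefore low in resting tissue and come largely from cells in division, whereas D cyclins, pocket proteins and inhibitors are also transcribed in resting cells.

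Lung cells came from pigs with an LGR5-H2B-GFP knock-in, which both groups carry: a fluorescent histone marks cells that transcribe LGR5, a receptor for R-spondins, and may persist in a cell after transcription stops. Sorting gave a bright fraction called GFP-HI and an unlabelled one called GFP-NEG, each with 2 libraries that the labels number as biological replicates. No treatment is given, the animals' age is not given in the sample labels, whose protocol covers adult and fetal lung together, and the name of the deposited comparison mentions adult pig. Which antibody gates applied to these libraries is not stated, so each fraction is a mixture whose makeup the labels leave undefined.

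GFP-HI libraries held 24200550 and 24689986 counts and GFP-NEG libraries 6292253 and 7045652, so 1 count equals 0.0405 to 0.159 CPM, the count scaled to a common library total. Levels from here on are CPM after TMM scaling, which adjusts those totals. LGR5 was at 146 and 152 CPM in GFP-HI and at 1.55 and 0.767 CPM in GFP-NEG, the direction that the sort gives. Of 10 fibroblast markers, all 10 had GFP-HI values above both GFP-NEG values, against 27.7% of all tested genes. As higher, 6 passed the test, against 8.35% of all tested genes. The summed fibroblast level was 89769 and 78731 CPM in GFP-HI and 29825 and 9759 CPM in GFP-NEG. Past the threshold, all 4 pan-leukocyte markers and 9 of 10 T and NK cell markers were lower in GFP-HI. So were 6 of 8 B and plasma cell, 6 of 10 myeloid and 7 of 8 endothelial markers, against 27.6% of all tested genes. Of the epithelial markers 2 of 7 were lower, close to that share. The pan-leukocyte sum was 208 and 476 CPM in GFP-HI and 3090 and 4619 CPM in GFP-NEG, and no marker of these lists was at 0 in any library. Smooth muscle and pericyte markers went both ways, with PDGFRB and CSPG4 higher and MYH11 and RGS5 lower of 8. Of all tested genes, 8.35% were higher and 27.6% lower. Both erythroid markers tested were lower, with SLC4A1 at 0 in both GFP-HI libraries and HBB at 0 in GFP-HI replicate 2. In bulk samples, fewer cells of a type and less RNA per cell cannot be told apart, and the part of these cell types in the results below was not tested.

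Levels compare a gene with itself across libraries, not genes with each other. A gene was called when edgeR's quasi-likelihood test gave a Benjamini-Hochberg adjusted p under 0.05 over all 19682 tested genes. A log2 fold change is GFP-HI over GFP-NEG, with a standard error (SE) worked back from the test's F value. The test took each gene's spread from a trend shared by all genes. The SE therefore does not measure how far a gene's own replicates lay apart. Over all tested genes, 8.35% were called higher and 27.6% lower in GFP-HI (36.0% in either direction), and the median log2 fold change was -0.25.

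Of the 45 cell cycle genes, 3 were called higher in GFP-HI (6.67%), 6 lower (13.3%) and 36 not called. CCND1, NUSAP1 and CDKN2C rose, and E2F2, MCM2, MCM3, TYMS, PLK1 and CDKN1A fell. Both shares lie below those of all tested genes in the same fit. The fractions overlapped for 23 of the 45 genes (51.1%), whereas 9 genes lay wholly higher in GFP-HI (20%, against 27.7% of all tested genes) and 13 wholly lower (28.9%, against 42.0%). The authors' deposited table, which lists all 45, has 3 of them higher and 7 lower at an adjusted p under 0.05, against 8.2% and 11.2% of its 16250 genes. The share of cell cycle genes that are lower is thus above the share over all genes there, not below it. In the authors' deposited table CCND2 is past the threshold (adjusted p of 0.044) and so is CCND3 (0.035), while NUSAP1 is not (0.073). DESeq2 run on the same counts called 3 of the 45 higher and 7 lower, against 6.91% and 26.7% of all tested genes.

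**Figure D1:**
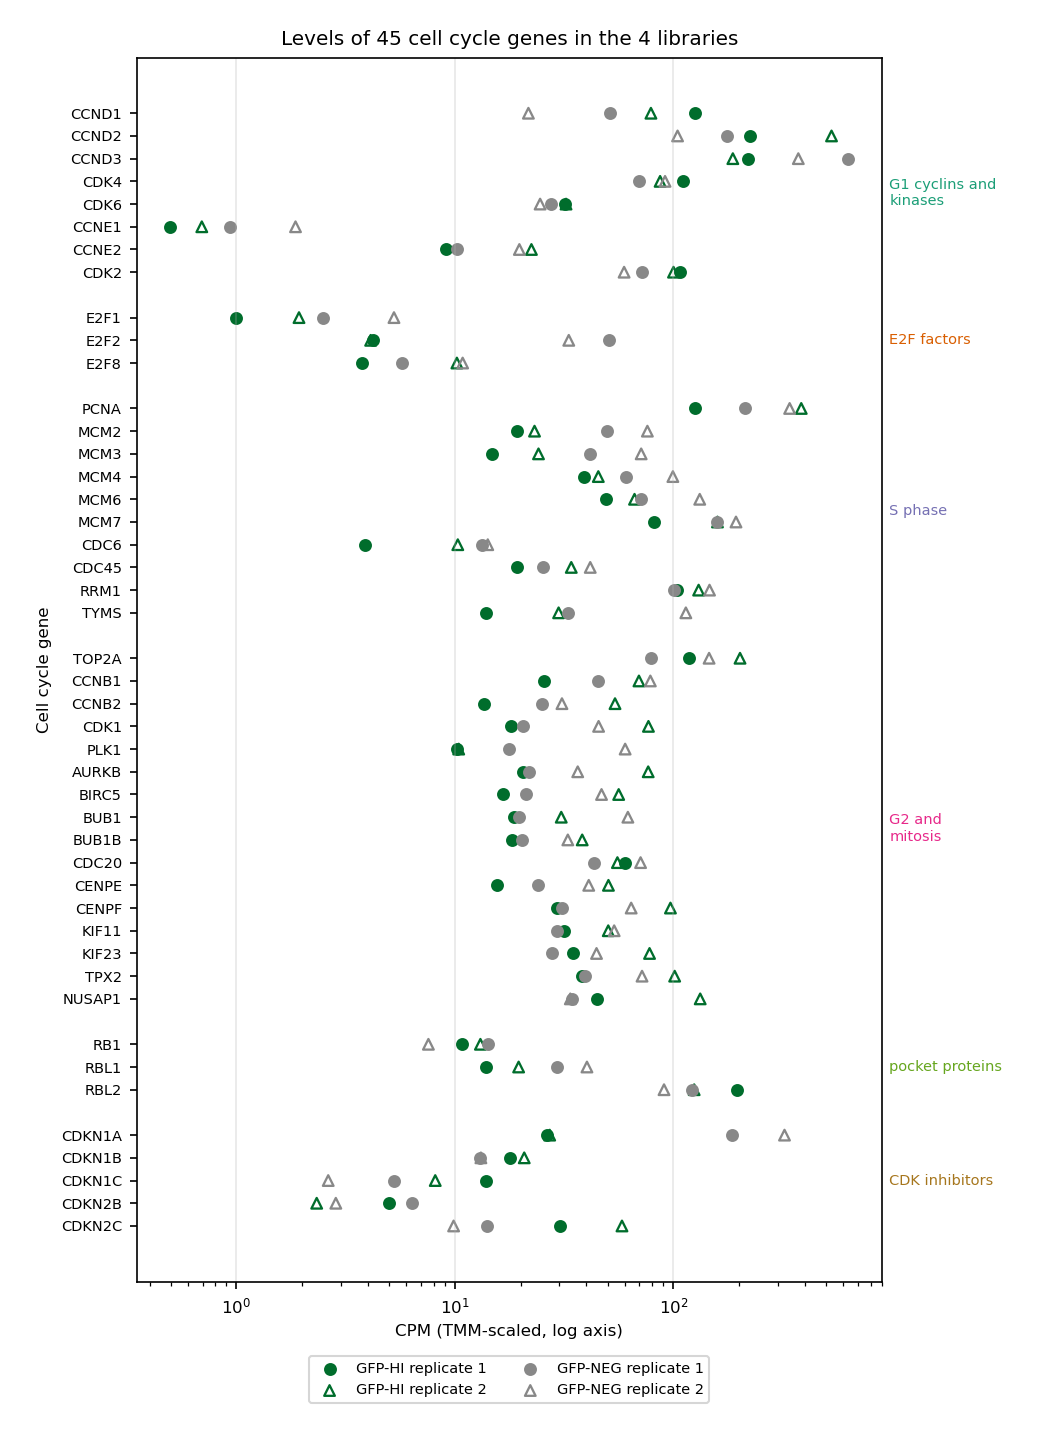
Level of each of the 45 cell cycle genes (rows, grouped by role) in CPM on a log axis, with GFP-HI in green, GFP-NEG in grey, filled circles for replicate 1 and open triangles for replicate 2. E2F2 and CDKN1A have both GFP-HI values far below both GFP-NEG values, and in the mitosis rows the triangles of both colours mostly lie to the right of the circles.

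Among the G1 cyclins and kinases, 1 of 8 genes rose and 0 fell, against 8.35% and 27.6% of all tested genes. The 3 D cyclins differed from one another in direction. CCND1, a cyclin D that Wnt and growth factor signals induce in many cells, was at 126 and 79.0 CPM in GFP-HI and 51.2 and 21.7 CPM in GFP-NEG. Both GFP-HI libraries were above both GFP-NEG libraries, and replicate 1 was the higher of each pair. CCND1 thus rose by 1.49 on the log2 scale (SE 0.54), and edgeR gave an adjusted p of 0.018. Fits with a library left out called fewer of all tested genes in either direction, fewest without GFP-NEG replicate 2. A call lost there thus does not by itself set a gene apart, here or below. The CCND1 call was lost without GFP-HI replicate 1 (log2 fold change 1.17) and without GFP-NEG replicate 2 (1.001). It was also lost under library-size scaling (1.15) or a stricter count filter (1.44). Its adjusted p ranged from 0.017 to 0.47 over 13 alternatives.

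CCND2, a paralogue of it, was at 225 and 530 CPM in GFP-HI and 176 and 104.6 CPM in GFP-NEG. The groups did not overlap, but the difference came mostly from replicate 2, where GFP-HI was 2.33 higher on the log2(CPM + 1) scale, against 0.35 in replicate 1. It did not pass the test (log2 fold change 1.43, adjusted p of 0.077 in edgeR), though it did with DESeq2 (adjusted p of 0.047; 0.028 to 0.50 over 13 alternatives).

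CCND3, the cyclin D most used by blood cell lineages, went the other way, at 220 and 187 CPM in GFP-HI and 631 and 373 CPM in GFP-NEG. Both GFP-HI values were below both GFP-NEG values. The log2 fold change of -1.30 (SE 0.70) missed the threshold with edgeR, at an adjusted p of 0.14, and passed it with DESeq2 (0.029; 0.016 to 0.46 over 13 alternatives).

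A share of counts within the same library does not depend on how libraries are scaled. CCND3 made up 38.5% of D cyclin counts in GFP-HI replicate 1 (95% Wilson interval 37.6 to 39.3) and 23.5% in replicate 2 (22.9 to 24.2). In GFP-NEG the shares were 73.6% (72.4 to 74.7) and 74.7% (73.4 to 76.0). CCND3 thus held most D cyclin counts in both GFP-NEG libraries and a minority in both GFP-HI libraries. CCND2 took 39.4% (38.6 to 40.3) and 66.6% (65.8 to 67.3) in GFP-HI, against 20.5% (19.4 to 21.6) and 20.9% (19.8 to 22.1) in GFP-NEG. CCND2 was the most counted D cyclin of GFP-HI replicate 2. In GFP-HI replicate 1 it was so only narrowly, with 4966 counts against 4847 for CCND3. Shares of counts compare libraries and do not rank genes by level. The intervals of these shares cover counting error only. The shares were chosen after the values were seen, and with 2 libraries against 2 an exact permutation test cannot give a two-sided p below 0.333.

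None of the kinases that these cyclins activate was called. CDK4 was at 111 and 87.0 CPM in GFP-HI and 69.4 and 91.6 CPM in GFP-NEG, so its groups overlapped. CDK6 was at 31.8 and 32.3 CPM against 27.6 and 24.6 CPM. CDK2, the partner of the E and A cyclins, was at 108 and 100.2 CPM against 71.6 and 59.5 CPM, or 0.66 on the log2 scale (edgeR's adjusted p was 0.36). Neither CDK6 nor CDK2 overlapped between groups, and none of the 3 kinases passed the test. For CDK4 and CDK6 the sign of the log2 fold change (0.29 and 0.30) was negative under upper-quartile and library-size scaling.

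The E cyclins, which act with CDK2 at the start of replication, did not pass the test either. CCNE1 was low, at 0.498 and 0.694 CPM in GFP-HI and 0.932 and 1.86 CPM in GFP-NEG, from 6 to 17 counts a library. The groups did not overlap, and the log2 fold change was -1.23 (adjusted p of 0.46, edgeR). CCNE2 was at 9.06 and 22.4 CPM in GFP-HI and 10.2 and 19.7 CPM in GFP-NEG. In CCNE2 both replicate 2 libraries were above both replicate 1 libraries, while the 2 fractions of a replicate lay close together.

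E2F2, an activating E2F factor, had the largest fall of the 45 genes. It was at 4.21 and 4.11 CPM in GFP-HI and 50.6 and 33.2 CPM in GFP-NEG, from 93 and 83 counts against 326 and 303. Both GFP-HI values were far below both GFP-NEG values. On the log2 scale the difference was -3.33 (SE 0.60), 10.0-fold lower in GFP-HI, and edgeR gave an adjusted p of 1.1e-06. The call held under all 13 alternatives, with log2 fold changes from -3.72 to -2.99.

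The other 2 E2F genes of the list did not pass the test. E2F1, the factor most tied to S phase entry, was low throughout, at 0.997 and 1.93 CPM in GFP-HI and 2.48 and 5.26 CPM in GFP-NEG (log2 fold change -1.41, adjusted p of 0.35, edgeR). E2F8, a repressor that closes the E2F programme, was at 3.76 and 10.2 CPM in GFP-HI and 5.74 and 10.9 CPM in GFP-NEG. It followed the replicate and not the fraction, with both replicate 2 values above both replicate 1 values. E2F2 made up 47.0% and 25.3% of E2F counts in GFP-HI (intervals 40.1 to 53.9 and 20.9 to 30.3) and 86.0% and 67.3% in GFP-NEG (82.2 to 89.1 and 62.9 to 71.5). This share was also chosen after the values were seen, and it restates the fall of E2F2.

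**Figure D2:**
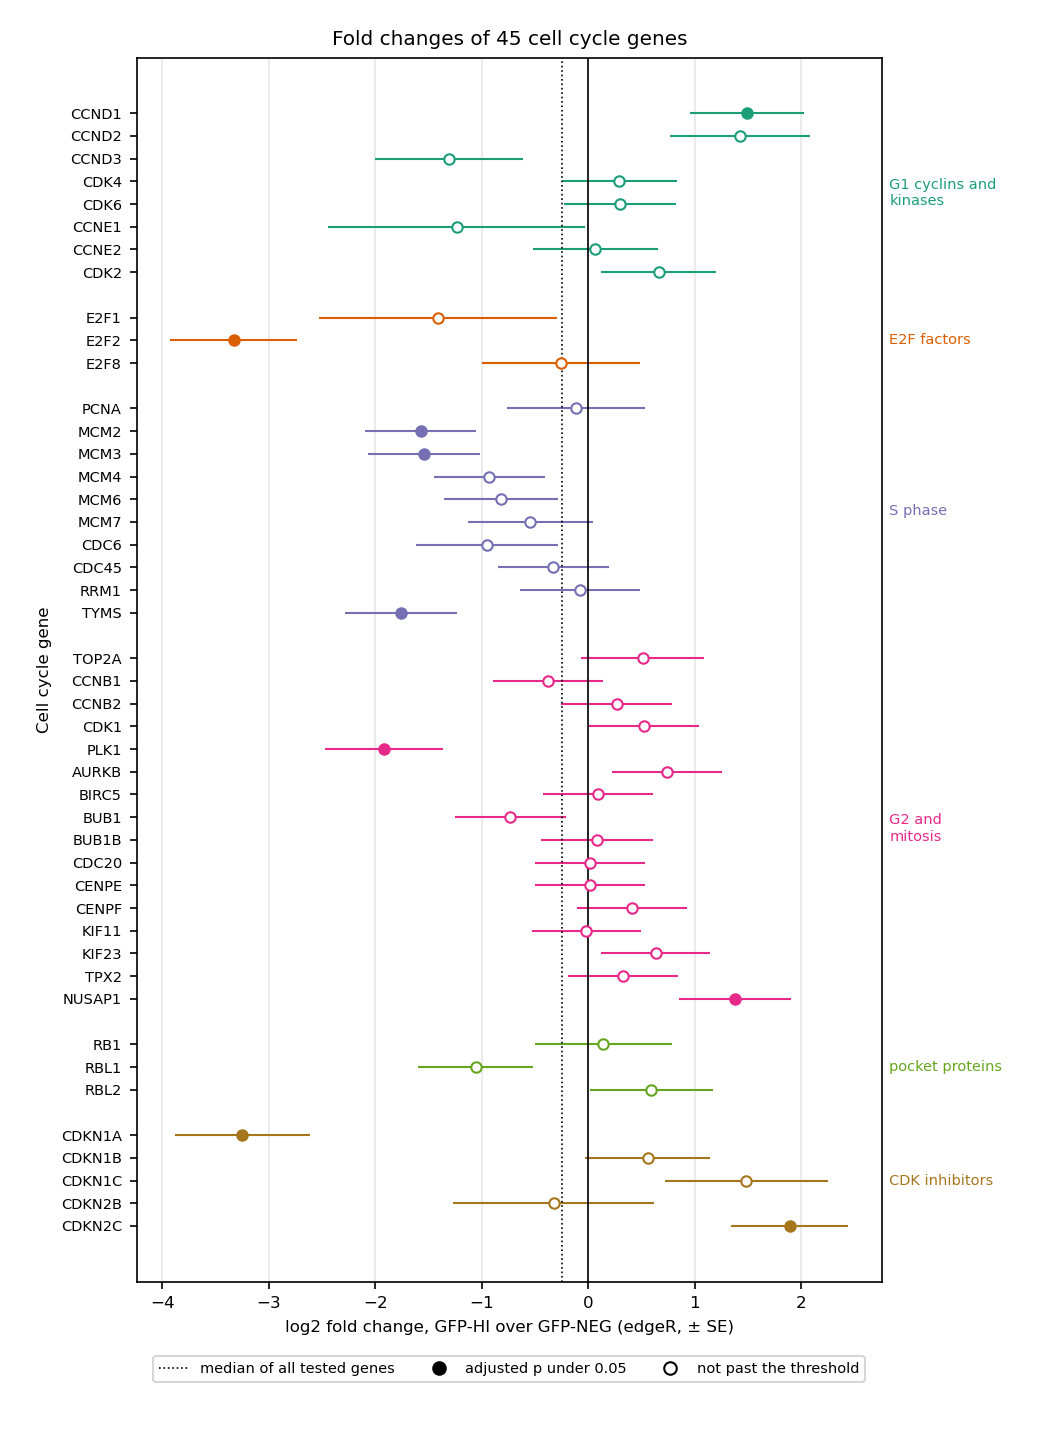
Log2 fold change of GFP-HI over GFP-NEG with its SE for the 45 genes (rows, coloured by role). The SE rests on a trend shared by all genes and does not measure the spread of a gene's own replicates. Filled points passed the test and open points did not, and the dotted line is the median of all tested genes (-0.25). The 10 S phase genes all lie below 0, while the 16 mitosis genes spread around 0 with PLK1 low and NUSAP1 high.

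S phase genes were lower in GFP-HI in sign for all 10 genes measured, as were 10969 of all 19682 tested genes. Of the 10, edgeR called 3 lower (30.0%) and 0 higher, as did DESeq2, with 0 higher at an unadjusted p under 0.05 in either. That share of lower calls is close to the 27.6% of all tested genes, but this background depends on the filter and the fit. MCM2, MCM3 and TYMS were also called lower with at least 10 counts in 2 libraries, where 3182 of 17690 genes were. They are lower in the authors' deposited table too, against 11.2% of its genes. The median log2 fold change was -0.87, which is 0.62 below that of all tested genes. Scaling moved the median of all tested genes to -0.58 (upper quartile) and -0.68 (library size alone), and the S phase median then lay 0.66 and 0.68 below it. Under each of these scalings and RLE all 10 genes stayed negative. Which libraries were used mattered more. Without GFP-HI replicate 1 the median was -0.44, only 0.09 below that of all tested genes in the same fit, and without GFP-NEG replicate 2 it was -0.46, or 0.30 below, with 7 of 10 genes negative in each. Without any filter on low counts the median of all tested genes moved to -1.21, and the S phase median of -0.81 lay above it. In replicate 1 the median difference in log2(CPM + 1) was -0.85 and in replicate 2 it was -0.70, with 9 of 10 genes negative in each. Of all tested genes, 55.9% were negative in replicate 1 and 57.1% in replicate 2.

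TYMS, which makes thymidylate for DNA synthesis, fell most. It was at 13.8 and 29.8 CPM in GFP-HI and 32.9 and 114 CPM in GFP-NEG. The highest GFP-HI value was just below the lowest GFP-NEG value, and GFP-NEG replicate 2 stood well above the other 3 libraries. Its log2 fold change was -1.75 (SE 0.53), and edgeR gave an adjusted p of 0.0037. Without GFP-NEG replicate 2 it was -0.59, and without GFP-HI replicate 1 it was -1.21, and in both fits the call was lost.

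The MCM2-7 proteins form the ring helicase that is loaded at replication origins, and 5 of the 6 subunits had a row. MCM2 was at 19.2 and 23.2 CPM in GFP-HI and 49.8 and 76.1 CPM in GFP-NEG, which gave -1.57 on the log2 scale (SE 0.52, adjusted p of 0.0099 in edgeR). MCM3 was at 14.8 and 24.1 CPM against 41.8 and 71.3 CPM, which gave -1.54 (SE 0.53, adjusted p of 0.012). For both genes the GFP-NEG values were wholly above the GFP-HI values. Both calls were lost without GFP-HI replicate 1 (log2 fold changes of -1.365 and -1.15) or without GFP-NEG replicate 2 (-1.24 and -1.10).

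MCM4 was at 38.9 and 45.4 CPM in GFP-HI and 60.6 and 99.5 CPM in GFP-NEG, and MCM6 at 49.1 and 66.4 CPM against 71.3 and 132 CPM. Their groups did not overlap, but the log2 fold changes of -0.93 and -0.82 were not past the threshold (adjusted p of 0.16 and 0.24, edgeR). MCM4 passed under upper-quartile and library-size scaling, and MCM6 under library-size scaling. MCM7, at 82.0 and 159 CPM against 158 and 194 CPM, overlapped. The 5 subunits thus shared a direction, with log2 fold changes from -1.57 to -0.54.

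CDC6 loads the helicase, and CDC45 is part of it once it unwinds DNA. CDC6 was at 3.90 and 10.3 CPM in GFP-HI and 13.4 and 14.1 CPM in GFP-NEG, with no overlap, and did not pass the test (log2 fold change -0.95, adjusted p of 0.28, edgeR). CDC45 was at 19.3 and 34.1 CPM against 25.3 and 41.7 CPM and overlapped. PCNA, the sliding clamp of the DNA polymerases, was at 125 and 385 CPM in GFP-HI and 212 and 341 CPM in GFP-NEG. GFP-HI held both its lowest and its highest PCNA value, so the replicates differed more than the fractions. RRM1, the large subunit of ribonucleotide reductase, overlapped too, at 104 and 131 CPM against 101 and 146 CPM.

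In a wider list of S phase genes, of 41 tested genes, 8 were lower in GFP-HI (19.5%, below the 27.6% of all tested genes) and 0 higher. At an unadjusted p under 0.05, 1 was higher in edgeR, and DESeq2 also called 0 higher. Their median log2 fold change of -0.22 was 0.03 above that of all tested genes. The 3 largest falls were in UHRF1, which copies DNA methylation marks at the fork, FEN1, which trims Okazaki fragments, and EXO1, a repair exonuclease. UHRF1 was at 3.40 and 6.44 CPM in GFP-HI and 19.1 and 36.8 CPM in GFP-NEG, or -2.51 on the log2 scale (SE 0.61). FEN1 was at 11.73 and 11.105 CPM against 31.5 and 56.7 CPM (-1.95), and EXO1 at 1.27 and 6.44 CPM against 10.4 and 19.3 CPM (-1.95). UHRF1 and FEN1 each kept the call under 12 of 13 alternatives and EXO1 under 9, with EXO1 at -3.50 to -1.13 and an adjusted p of up to 0.30. Leaving out GFP-NEG replicate 2 ended all 3 calls (-1.96, -1.46 and -1.43), and leaving out GFP-HI replicate 1 ended that of EXO1 (-1.125). Without GFP-NEG replicate 2 the median log2 fold change of this list was 0.032, against -0.16 for all tested genes. It was 0.13 without GFP-HI replicate 1 (against -0.35). Without GFP-HI replicate 2 and without GFP-NEG replicate 1 it was -0.70 and -0.49 (against -0.25 and -0.26).

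Mitosis genes did not separate the fractions. Of 16 genes measured, 1 rose (6.25%, against 8.35% of all tested genes), 1 fell (6.25%, against 27.6%) and 14 were not called. For the same number, 14 of 16 (87.5%), the fractions overlapped, against 30.3% of all tested genes. The median log2 fold change was 0.18, which is 0.43 above that of all tested genes. This sign depended on scaling, with medians of -0.18 under upper-quartile and -0.32 under library-size scaling, still 0.40 and 0.36 above the median of all tested genes. The median was -0.58 without GFP-HI replicate 2 and -0.13 without GFP-NEG replicate 1, and stayed positive, at 0.87 and 0.64, without GFP-HI replicate 1 and without GFP-NEG replicate 2. It was 0.0062 with GFP-HI counts thinned. Within replicate 1 the median difference in log2(CPM + 1) was -0.080, with 11 of 16 genes negative, and within replicate 2 it was 0.38, with 11 of 16 positive.

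PLK1, a kinase that drives entry into and progress through mitosis, was the gene that fell. It was at 10.2 and 10.4 CPM in GFP-HI and 17.7 and 60.2 CPM in GFP-NEG. The GFP-HI values were nearly equal, and GFP-NEG replicate 2 stood above the other 3 libraries. Its log2 fold change was -1.92 (SE 0.55), and edgeR gave an adjusted p of 0.0024. Leaving out GFP-NEG replicate 2 (-0.78), GFP-HI replicate 1 (-1.82) or GFP-HI replicate 2 (-1.89) ended the call, which was kept under 9 of 13 alternatives, and the adjusted p ranged from 2.1e-04 to 0.56 over 13 alternatives.

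NUSAP1, a microtubule-binding protein of the spindle, was the gene that rose. It was at 44.9 and 133 CPM in GFP-HI and 34.5 and 33.8 CPM in GFP-NEG, so GFP-HI replicate 2 set most of the difference. Its log2 fold change was 1.38 (SE 0.53), and edgeR gave an adjusted p of 0.028. The call held under only 3 of 13 alternatives, over which the adjusted p ranged from 0.012 to 0.64. It was lost without GFP-HI replicate 2 (log2 fold change 0.43), without GFP-NEG replicate 1 (1.39) and without GFP-NEG replicate 2 (1.365).

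The kinases and cyclins at the core of mitotic entry overlapped between fractions. CDK1 was at 18.1 and 76.9 CPM in GFP-HI and 20.5 and 45.5 CPM in GFP-NEG (log2 fold change 0.52, adjusted p of 0.46, edgeR). CCNB1, a B cyclin that activates CDK1, was at 25.6 and 69.6 CPM against 45.03 and 78.5 CPM, and CCNB2 at 13.6 and 54.1 CPM against 25.2 and 30.9 CPM. In each of these genes the lowest library was GFP-HI replicate 1. For CDK1 and CCNB2 the highest was GFP-HI replicate 2, so both extremes came from the same sorted fraction.

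Genes of the chromosomal passenger complex and the spindle checkpoint overlapped between fractions as well. AURKB, the kinase of that complex, was at 20.5 and 76.7 CPM in GFP-HI and 21.7 and 36.5 CPM in GFP-NEG, and BIRC5 (survivin), its partner, at 16.6 and 56.2 CPM against 21.1 and 46.9 CPM. The checkpoint kinase BUB1 was at 18.6 and 30.7 CPM against 19.7 and 61.9 CPM, and BUB1B at 18.3 and 38.3 CPM against 20.3 and 32.9 CPM. CDC20, which activates the anaphase-promoting complex, was at 60.1 and 55.5 CPM against 43.5 and 70.8 CPM. None of these 5 genes passed the test, with log2 fold changes from -0.73 (BUB1) to 0.74 (AURKB). AURKB passed without GFP-HI replicate 1 (adjusted p of 0.044) and BUB1, as lower, under library-size scaling (0.048); over 13 alternatives the adjusted p reached 0.81 and 0.83.

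Kinetochore and spindle motor genes were not called either. CENPE, a kinetochore motor, was at 15.6 and 50.5 CPM in GFP-HI and 24.1 and 41.0 CPM in GFP-NEG, and CENPF, a kinetochore protein, at 29.5 and 97.0 CPM against 30.9 and 64.1 CPM. KIF11, the motor that separates spindle poles, was at 31.6 and 50.4 CPM against 29.2 and 53.6 CPM. KIF23, a motor of the central spindle, was at 34.6 and 77.8 CPM against 27.8 and 44.5 CPM. TPX2, a spindle assembly factor, was at 38.3 and 101 CPM against 39.3 and 71.9 CPM. TOP2A, the topoisomerase that untangles sister chromatids, was at 118 and 202 CPM against 78.9 and 146 CPM. TOP2A and KIF23 were higher in GFP-HI within both replicates, and neither passed the test (log2 fold changes 0.51 and 0.64).

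In the wider mitosis list, of 51 tested genes, 3 were higher in GFP-HI (5.88%, against 8.35% of all tested genes), 0 lower (against 27.6%) and 48 not called. At an unadjusted p under 0.05, 7 were higher and 1 lower in edgeR, and DESeq2 called 0 higher and 1 lower. The fractions overlapped for 40 of the 51 (78.4%), against 30.3% of all tested genes. PRC1, which bundles microtubules at the central spindle, was at 35.5 and 69.1 CPM in GFP-HI and 22.5 and 20.9 CPM in GFP-NEG, or 1.27 on the log2 scale (SE 0.52, adjusted p of 0.044 in edgeR). The PRC1 call held under 1 of 13 alternatives, with adjusted p from 0.017 to 0.38. The other 2 genes called higher, CDCA3 and PBK, overlapped between fractions and are named after their values were seen. Without GFP-HI replicate 1, a fit that compares replicate 2 of GFP-HI with both GFP-NEG libraries, the list median log2 fold change was 0.52. The median of all tested genes was -0.35 there. Without GFP-NEG replicate 2 the list median was 0.58 (against -0.16). Without GFP-HI replicate 2 and without GFP-NEG replicate 1 it was -0.52 and -0.033 (against -0.25 and -0.26).

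**Figure D3:**
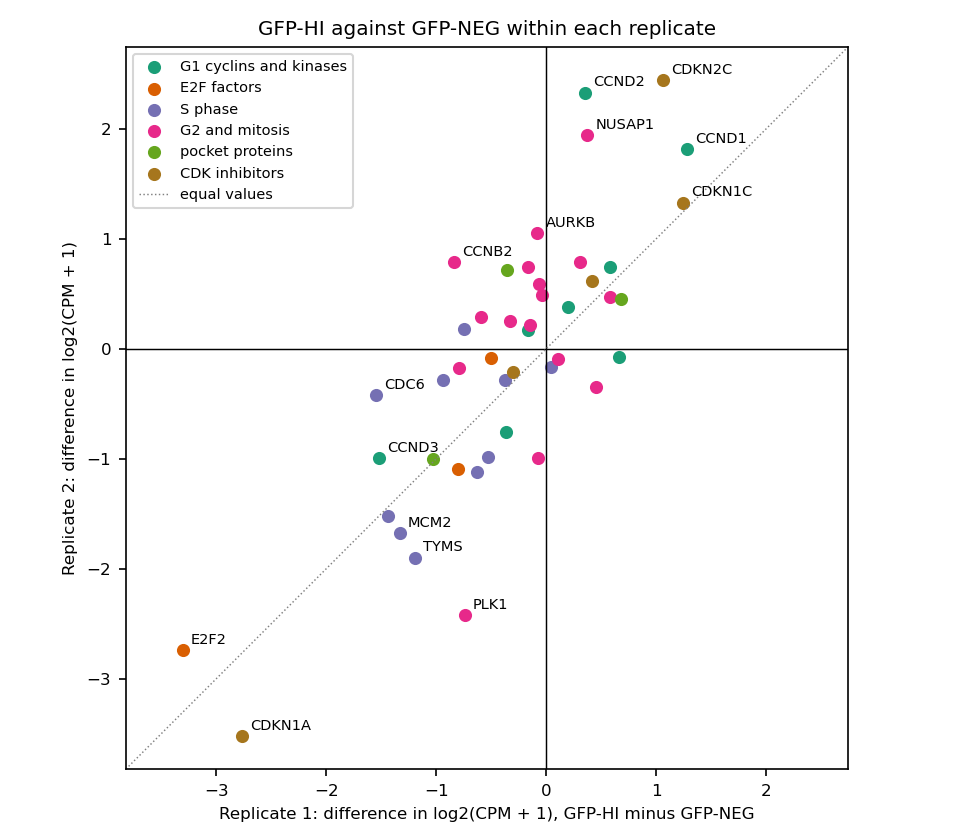
Difference in log2(CPM + 1), GFP-HI minus GFP-NEG, within replicate 1 (x axis) and within replicate 2 (y axis) for the 45 genes, coloured by role, with the dotted line marking equal values. CDKN1A and E2F2 are far below 0 in both replicates, and the mitosis genes lie mostly above the dotted line, with a median of -0.080 on the x axis and 0.38 on the y axis.

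The proportion of S phase to mitosis counts was compared within each library. The 10 S phase genes took 47.8% (95% Wilson interval 47.1 to 48.4) and 43.5% (43.0 to 44.0) of the summed S phase and mitosis counts in GFP-HI. In GFP-NEG they took 60.5% (59.5 to 61.6) and 57.2% (56.5 to 57.9). Both GFP-NEG libraries were above both GFP-HI libraries, and the libraries of 1 fraction differed by less than the fractions did. This share was also chosen after the values were seen, and the wider lists, compared later, showed it in replicate 2 only. Their S phase genes took 39.3% (38.9 to 39.8) and 33.0% (32.7 to 33.3) of the summed counts in GFP-HI and 39.7% (38.9 to 40.4) and 40.0% (39.4 to 40.5) in GFP-NEG, so the intervals of the 2 fractions overlapped in replicate 1 and lay apart in replicate 2.

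**Figure D4:**
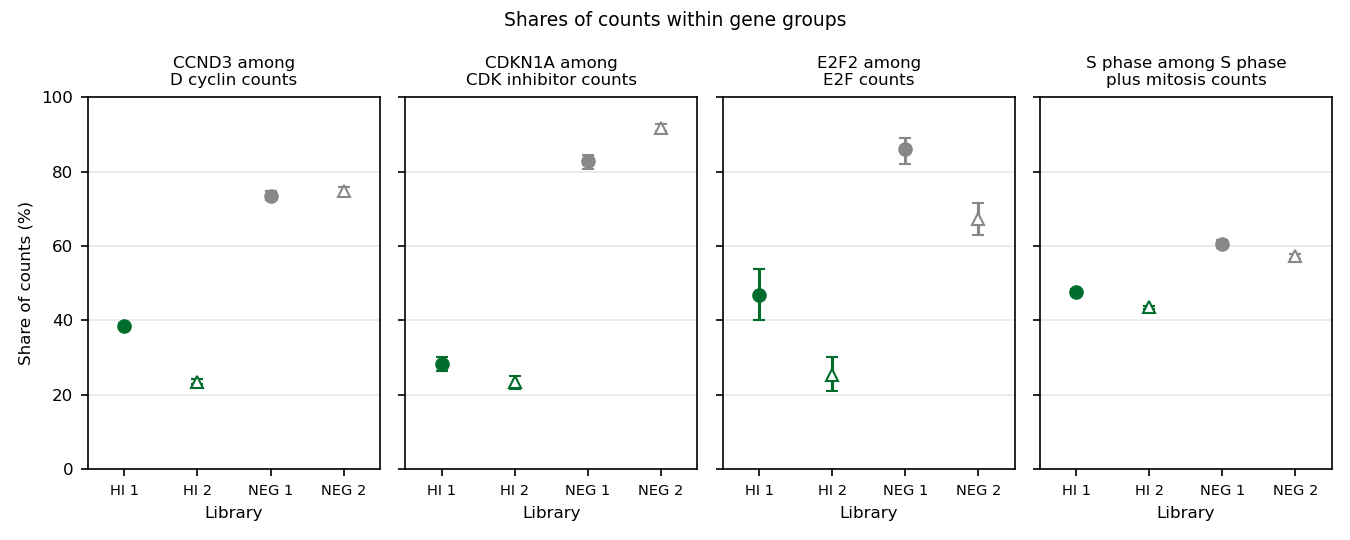
Share of counts (%) within a gene group in each library, with 95% Wilson intervals that cover counting error only. GFP-HI (green) lies below GFP-NEG (grey) in each panel, by the widest margin for CDKN1A, at 28.2% and 23.3% against 82.8% and 91.9%.

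Replication and mitosis genes also differed between the replicates. All 10 S phase genes and 14 of 16 mitosis genes were higher in replicate 2 than in replicate 1 within both fractions, a pattern that 23.8% of all tested genes had. In GFP-HI the mitosis genes were a median 2.69 times as high in replicate 2 as in replicate 1, from 0.923 for CDC20 to 4.25 for CDK1. In GFP-NEG the median ratio was 1.79, from 0.980 for NUSAP1 to 3.40 for PLK1. For S phase genes the median ratios were 1.70 in GFP-HI and 1.63 in GFP-NEG. With library totals alone as the scale, the counts were again 10 of 10 and 14 of 16, against 27.8% of all tested genes.

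The wider lists had 28 of 41 S phase and 39 of 51 mitosis genes higher in replicate 2 in both fractions, but 3 of 30 arrest genes. With 1 library for each fraction and replicate, these ratios have no error and no test. T and NK cell markers (9 of 10), B and plasma cell markers (7 of 8) and pan-leukocyte markers (4 of 4) were higher in replicate 2 in both fractions too, while 0 of 10 fibroblast, 0 of 10 myeloid and 0 of 8 endothelial markers were. T and NK cell markers summed to 90.6 and 172 CPM in GFP-HI and 658 and 1228 CPM in GFP-NEG. Whether these cells contribute to the cell cycle values was not tested.

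**Figure D5:**
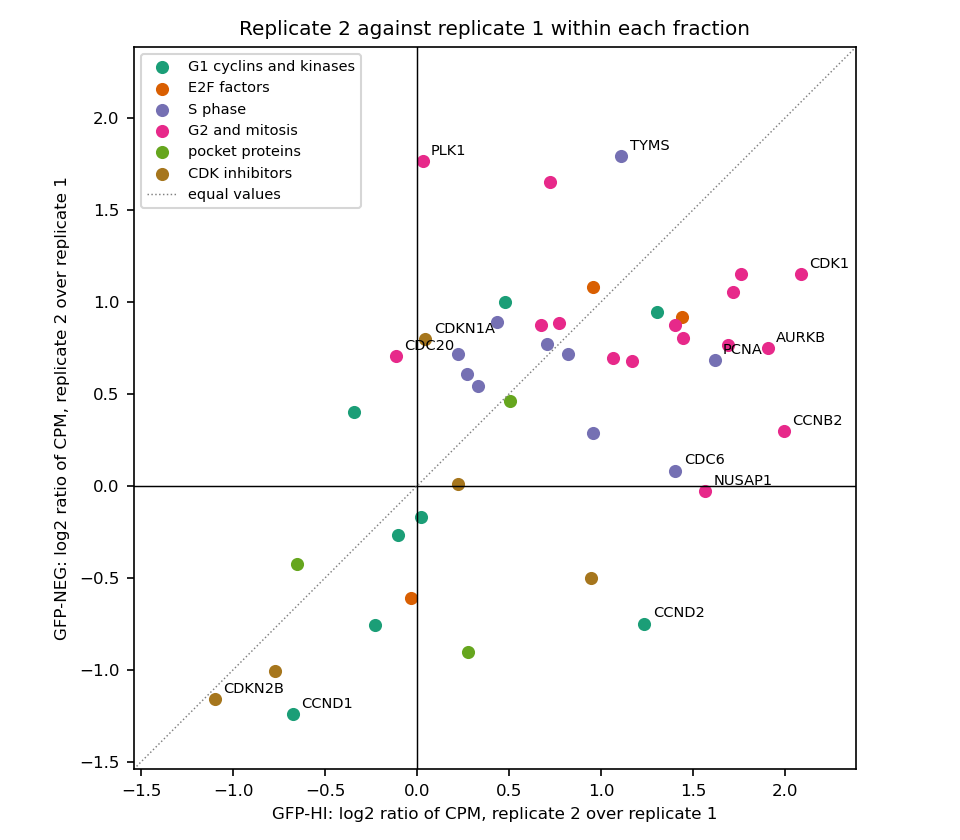
Log2 ratio of CPM in replicate 2 over replicate 1, in GFP-HI (x axis) and in GFP-NEG (y axis), for the 45 genes coloured by role, with the dotted line marking equal values. S phase and mitosis genes fill the upper right area, where replicate 2 is higher in both fractions, apart from CDC20 and NUSAP1, and CCND1 and CDKN2B lie at the lower left.

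Of the 8 arrest genes (pocket proteins and CDK inhibitors), 1 rose (12.5%, against 8.35% of all tested genes), 1 fell (12.5%, against 27.6%) and 6 were not called. CDKN1A, a CDK inhibitor that stress signals induce, was at 26.3 and 27.2 CPM in GFP-HI and 186 and 323 CPM in GFP-NEG. The GFP-HI libraries were nearly equal and far below both GFP-NEG libraries. On the log2 scale the difference was -3.25 (SE 0.63), 9.50-fold lower in GFP-HI, with edgeR's adjusted p at 9.1e-06, and the call held under all 13 alternatives (-3.73 to -2.79).

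CDKN2C, an inhibitor of CDK4 and CDK6, went the other way. It was at 30.3 and 58.2 CPM in GFP-HI and 14.0 and 9.87 CPM in GFP-NEG, with no overlap. Its log2 fold change was 1.89 (SE 0.55), 3.72-fold higher, and edgeR gave an adjusted p of 0.0025. The call was lost without GFP-HI replicate 2 (1.374) or without GFP-NEG replicate 2 (1.66), with the same direction.

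CDKN1C, an inhibitor linked to growth restraint in development, was at 13.9 and 8.13 CPM in GFP-HI and 5.28 and 2.63 CPM in GFP-NEG. Its groups did not overlap, and the log2 fold change of 1.48 (SE 0.77) was not past the threshold (adjusted p of 0.12, edgeR). CDKN1B, the inhibitor that accumulates in quiescent cells, was at 17.8 and 20.8 CPM against 13.04 and 13.2 CPM, with no overlap (log2 fold change 0.56, edgeR's adjusted p 0.49). CDKN2B, an inhibitor that TGF-beta induces, was low and overlapped, at 4.98 and 2.33 CPM against 6.37 and 2.85 CPM.

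CDKN1A made up 28.2% (95% Wilson interval 26.3 to 30.2) and 23.3% (21.6 to 25.1) of the counts of the 5 inhibitors in GFP-HI, and 82.8% (80.7 to 84.6) and 91.9% (90.9 to 92.8) in GFP-NEG. CDKN2C took 32.5% (30.5 to 34.5) and 49.9% (47.9 to 51.9) in GFP-HI, against 6.23% (5.10 to 7.60) and 2.81% (2.29 to 3.44) in GFP-NEG. The most counted inhibitor was CDKN2C in both GFP-HI libraries and CDKN1A in both GFP-NEG libraries, which does not rank their levels. These shares were also chosen after the values were seen. They restate the fold changes above, since a fall of CDKN1A by itself raises the share of CDKN2C.

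None of the 3 pocket proteins passed the test. RBL1, which is made mainly in cycling cells, was at 13.8 and 19.6 CPM in GFP-HI and 29.2 and 40.2 CPM in GFP-NEG, with no overlap (log2 fold change -1.06, adjusted p of 0.12, edgeR), and it passed under upper-quartile and library-size scaling. RBL2, the pocket protein of resting cells, was at 196 and 125 CPM against 122 and 90.7 CPM (log2 fold change 0.59, edgeR's adjusted p 0.46). RB1 was at 10.8 and 13.1 CPM against 14.1 and 7.56 CPM and overlapped.

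Of 30 further arrest and quiescence genes tested, 1 was higher in GFP-HI (3.33%, against 8.35% of all tested genes) and 6 lower (20%, against 27.6%). The largest falls were in PLK3, a stress-response kinase, BTG1, an antiproliferative factor of lymphocytes and other resting cells, and CDKN2D, another inhibitor of CDK4 and CDK6. PLK3 was at 21.7 and 6.25 CPM in GFP-HI and 250 and 118 CPM in GFP-NEG, or -3.72 on the log2 scale (SE 0.61). BTG1 was at 46.7 and 31.2 CPM against 247 and 195 CPM (-2.51), and CDKN2D at 17.9 and 14.8 CPM against 73.0 and 54.4 CPM (-1.96). All 3 calls held under 13 alternatives. SESN3, a stress-response gene that FOXO factors induce, was the gene called higher, at 84.5 and 168 CPM against 47.8 and 53.7 CPM (adjusted p of 0.047, edgeR). The SESN3 call held under 1 of 13 alternatives, with adjusted p from 0.015 to 0.34.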

How the data were processed

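For every library the authors deposited gene counts as whole numbers. A further table compares the fractions and, per the file headers, holds log2 fold changes and p-values with their adjusted form. The submitters' processing notes name featureCounts, Subread 1.5.2 and DESeq2 1.37.6 without their roles. Aligner, strand setting, filters and genome build are not given in the sources used here, so no coordinates are printed, and overlapping genes are uncertain. The comparison table's 4 count columns equal the count tables, and its 4 columns of normalized values were not used: their headings name pigs and fractions in an order that could not be reconciled with the libraries, so they gave no pairing either.

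Identifiers were named from the gene name table (834 renamed). Counts were fitted with edgeR 4.0.16 (R 4.3.3, quasi-likelihood F test, TMM scaling, filterByExpr, group as the only term), which kept 19682 genes with 99.8% of counts. The common dispersion was 0.239, and the spread of single genes was shrunk entirely to the common trend. Whether equal replicate numbers mark 1 animal is not given in the sample labels, so numbers were not treated as pairs. Within-replicate differences used log2(CPM + 1). The fits were tested on simulated data. Alternatives covered scaling, filters, DESeq2 1.42.0, a replicate block, thinning and each library left out.

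All 50 cell cycle genes are named. From each wider list, in each direction, the 3 called genes of largest log2 fold change with a mean of at least 1 CPM and no overlap are named. Members and lists were chosen with earlier results of these data known.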

Additional observations from a re-analysis of the deposited data

How the results depend on the processing

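E2F2, CDKN1A and LGR5 kept direction and call under all 13 alternatives, and no called cell cycle gene changed sign. The sign changed under some alternative for 22 of the other genes, none past the threshold there (smallest adjusted p of 0.25), and the cause was not tested. Fits that leave out a library assume that the lone library of its group varies like the other group.

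Of the 45 genes, the number higher (3) was 1 under library-size scaling and with at least 10 counts in 2 libraries, and 0 to 4 when single libraries were left out. The number lower (6) was 11 under library-size scaling and 2 to 6 without single libraries. The wider S phase list had 8 lower, and 5 with no count filter or with DESeq2, 3 with the stricter filter or DESeq2 with the block, and 0 to 6 without single libraries, where 0 to 2 were higher. The wider mitosis list (3 higher, 0 lower) had 0 higher under library-size scaling, the stricter filter, DESeq2 and the replicate block, and 1 under upper-quartile scaling, thinning and DESeq2 with the block. It had 0 to 8 higher without single libraries, and 1 lower under upper-quartile scaling and both DESeq2 fits and 2 under library-size scaling. The wider arrest list (1 higher, 6 lower) had 0 higher under RLE, upper-quartile and library-size scaling, both filters, DESeq2, the block and thinning. Without single libraries it had 0 to 1 higher and 3 to 5 lower.

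The median log2 fold change of the G1 group (0.30) was 0.25 with RLE and DESeq2, -0.038 with upper quartile, -0.14 with library size, 0.35 and 0.24 with no and the stricter filter, 0.30 and 0.26 with the block in edgeR and DESeq2, 0.14 after thinning, and 0.25 to 0.52 without single libraries. For E2F factors (-1.41), S phase (-0.87), mitosis (0.18) and CDK inhibitors (0.56) it was -1.78, -1.24, -0.18 and 0.23 with upper quartile and -1.92, -1.36, -0.32 and 0.12 with library size. With GFP-HI counts thinned to match GFP-NEG totals, E2F factors, S phase and CDK inhibitors were at -1.15, -1.004 and 0.41, and mitosis at 0.0062, against 0.045 with the block and 0.0030 with the block in DESeq2. Without single libraries the ranges were -1.91 to -0.76, -1.09 to -0.44, -0.58 to 0.87 and 0.48 to 0.74. The pseudocount kept the sign of all 24 within-replicate medians. Of these, 8 moved by more than the spread between the medians of the replicates, and the largest move of any was 0.45.

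Signs changed as follows. Upper quartile gave CDK4 -0.053, CDK6 -0.024, CCNE2 -0.31, CCNB2 -0.080, BIRC5 -0.29, BUB1B -0.28, CDC20 -0.35, CENPE -0.35, TPX2 -0.047 and RB1 -0.14. Library size gave CDK4 -0.15, CDK6 -0.13, CCNE2 -0.45, CCNB2 -0.23, CDK1 -0.021, BIRC5 -0.44, BUB1B -0.41, CDC20 -0.45, CENPE -0.50, CENPF -0.12, TPX2 -0.19 and RB1 -0.25. RLE, DESeq2 and the stricter filter gave CDC20 -0.032, -0.033 and -0.041 and CENPE -0.028, -0.028 and -0.035, and no filter gave KIF11 0.048. The replicate block gave CCNB2 -0.031, BIRC5 -0.039, CENPE -0.16 and KIF11 0.011, and with DESeq2 CCNE2 -0.036, CCNB2 -0.077, BIRC5 -0.082, BUB1B -0.0085 and CENPE -0.20. Libraries share a replicate number without a label that pairs them; deviations of same-numbered libraries correlated across genes (r of 0.19), from 2 pairs. In edgeR the block left 2 of the 45 genes higher and 6 lower; NUSAP1, PRC1 and SESN3 then had adjusted p of 0.087, 0.065 and 0.077. DESeq2 with the block gave PLK1 an adjusted p of 0.059. Thinning gave CCNE2 -0.027, BIRC5 -0.15, BUB1B -0.10, CDC20 -0.087 and CENPE -0.18.

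Without single libraries the values ran from -0.69 to 0.66 for CCNE2, -1.10 to 0.37 for E2F8, -1.10 to 0.56 for PCNA, -0.76 to 0.10 for CDC45, -0.32 to 0.22 for RRM1, -1.23 to 0.25 for CCNB1, -1.01 to 1.02 for CCNB2, -0.82 to 1.30 for CDK1, -0.47 to 1.48 for AURKB, -0.99 to 0.81 for BIRC5, -1.33 to 0.32 for BUB1, -0.51 to 0.60 for BUB1B, -0.29 to 0.41 for CDC20, -1.02 to 0.71 for CENPE, -0.65 to 1.11 for CENPF, -0.39 to 0.49 for KIF11, -0.024 to 1.18 for KIF23, -0.50 to 0.95 for TPX2, -0.24 to 0.66 for RB1 and -0.91 to 0.36 for CDKN2B.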
